A study of Mus musculus with 12 samples.

Results

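Fibroblasts that carried RNA of Clec3b, Penk, Inmt or Dpep1 were examined in single-cell RNA sequencing libraries of the mouse aorta. A barcode entered the set when it held more than 200 genes, more than 1000 unique molecular identifiers (UMIs) and under 10% mitochondrial UMIs, at least 3 of the 6 fibroblast genes Pdgfra, Dcn, Lum, Col1a1, Col1a2 and Col3a1, and no UMI of Ptprc, Pecam1, Myh11 or Tnfrsf11b. It also had to hold at least 3 UMIs of Inmt, Clec3b, Penk and Dpep1 together, and more of these than of Fbn1, Sfrp4, Postn and Cd248. The rule chose 2543 of the 6045 fibroblast-gated barcodes and of the 38072 barcodes within the limits on depth. All mice were described as male C57BL/6J ApoE−/− mice that entered the experiment at 8 weeks of age and were fed for 24 weeks. The Healthy group had a normal diet with saline, and the atherosclerosis (AS) group a high-fat diet with saline for 24 weeks. The MTZ-treated group had the high-fat diet for 24 weeks with 25 mg/kg methazolamide (MTZ), a carbonic anhydrase inhibitor, by gavage every other day over the last 12 weeks. The MTZ-preventive group had the same dose over all 24 weeks. Each group gave 1 gene expression library from 6 pooled aortas, so that differences between groups cannot be told apart from differences between libraries, and no test was possible.

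The library labelled Healthy went against its label. Apoe, which encodes the lipoprotein ligand that the knockout removes, stood at 1645 UMIs for every 1000000 UMIs of the set (counts per 1000000, CPM) in the chosen fibroblasts of the library labelled Healthy. It stood at 7.15 CPM in AS, 10.1 CPM in MTZ-treated and 7.43 CPM in MTZ-preventive. The same split was seen in endothelial barcodes, at 1218 CPM in the library labelled Healthy and between 17.6 and 27.1 CPM in the other 3 libraries. Every difference from the library labelled Healthy below may therefore hold a difference of genotype as well as of diet, and the 2 cannot be told apart.

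Runs of 4 values below give the library labelled Healthy first, then AS, then MTZ-treated and last MTZ-preventive. The set held 766, 50, 533 and 1194 barcodes, which gave 2243510, 139801, 1482924 and 3901032 UMIs, with a median of 1826, 1695, 2180 and 2406.5 UMIs per barcode. A count of 0 therefore allows a level of up to 1.34, 21.5, 2.02 and 0.769 CPM. AS was by far the shallowest, and 1 barcode of 12915 UMIs gave 9.24% of its UMIs. Of the chosen barcodes, 58, 6, 44 and 91 had a sequence that also occurred in another library, and 2 were chosen in both libraries that held them. All intervals below are 95% intervals and cover counting error only.

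The adventitia, the outer coat of an artery, is made of fibroblasts and their collagen together with small vessels, nerves and immune cells. Its fibroblasts secrete fibrillar collagens and elastic fibre proteins, and they are also a known source of complement proteins, chemokines and acute phase proteins. Clec3b encodes tetranectin, a secreted lectin that binds plasminogen. Penk encodes the precursor of the enkephalin opioid peptides, Inmt a methyltransferase that acts on indoles and other small amines, Dpep1 a membrane dipeptidase, and Ccl11 the eosinophil chemokine eotaxin.

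Clec3b carried most of the choice, and Penk a small part of it. Clec3b was detected in 99, 100, 98.5 and 95.1% of the chosen barcodes. It gave 86, 83.6, 89.9 and 72.2% of the UMIs of the 4 choosing genes. Penk was detected in 37.7, 20, 25.9 and 46.5% of the chosen barcodes, Inmt in 24, 24, 30.8 and 37.5%, and Dpep1 in 40.1, 58, 40.7 and 67.5%. Barcodes with Clec3b and none of the other 3 genes made up 34.6, 32, 42 and 15.4% of the set. All 4 genes were found together in 56, 3, 53 and 221 barcodes. The set is therefore named after its leading gene, as Clec3b-led fibroblasts, and the position of the cells in the wall was not measured.

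The 5 marker genes were Clec3b (ENSMUSG00000025784), Penk (ENSMUSG00000045573), Inmt (ENSMUSG00000003477), Dpep1 (ENSMUSG00000019278) and Ccl11 (ENSMUSG00000020676). Clec3b stood at 6813 CPM in the library labelled Healthy, 4113 CPM in AS, 7465 CPM in MTZ-treated and 4161 CPM in MTZ-preventive. Penk stood at 550 CPM in the library labelled Healthy, 172 CPM in AS, 266 CPM in MTZ-treated and 578 CPM in MTZ-preventive. Since the rule used both genes, these levels are a description of what was chosen. Ccl11, which the rule did not use, stood at 201, 165, 250 and 370 CPM. The interval of AS overlapped those of the library labelled Healthy and of MTZ-treated, and MTZ-preventive was the highest.

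The comparison set of fibroblasts met the same gates, held at least 3 UMIs of Fbn1, Sfrp4, Postn and Cd248 together and more of these than of the 4 choosing genes. This Fbn1/Sfrp4 set held 203, 138, 664 and 670 barcodes, and 610, 154, 240 and 823 fibroblast-gated barcodes fell into neither set. Both sets were chosen by their UMI counts, so that the gap between them in the 8 genes of the rule is set by the choice. Clec3b still reached 2729, 1633, 4613 and 1888 CPM in the Fbn1/Sfrp4 set, while Penk stayed at 38.1, 22.0, 17.8 and 73.6 CPM there. Ccl11 was at 43.6, 36.6, 31.4 and 58 CPM in the Fbn1/Sfrp4 set, below the Clec3b-led fibroblasts in each library.

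**Figure D1:**
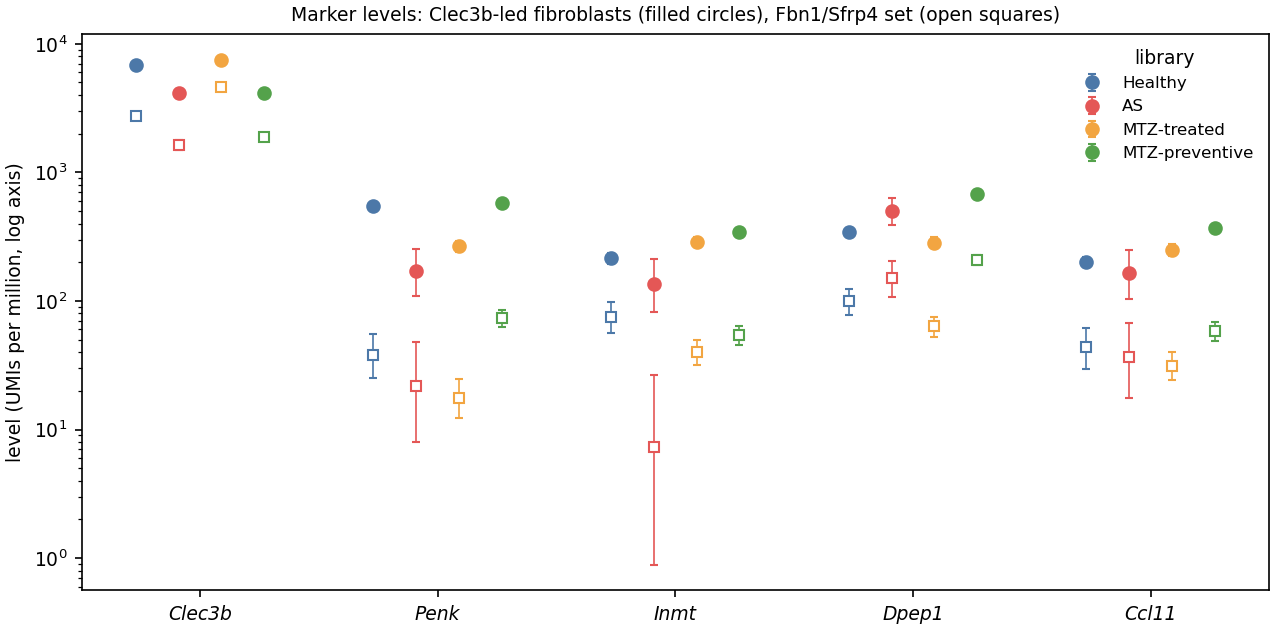
Levels of 5 marker genes in CPM on a log axis, in the Clec3b-led fibroblasts (filled circles) and the Fbn1/Sfrp4 set (open squares) of each library, with 95% counting intervals. The 4 Penk levels of the Clec3b-led fibroblasts, from 172 to 578 CPM, lie above all 4 of the Fbn1/Sfrp4 set. Penk is a gene of the rule, so that this gap is set by the choice. Of the genes shown, only Ccl11 was not used by the rule.

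The rule cut through a continuum. At the least allowed sum of 3 UMIs stood 101, 4, 36 and 149 chosen barcodes. Just outside, with a sum of 2, stood 103, 10, 24 and 165 barcodes. A further 106, 42, 447 and 333 barcodes held 3 or more UMIs of the choosing genes but more of Fbn1, Sfrp4, Postn and Cd248. Within the Clec3b-led set, 71.4, 84, 71.1 and 65.3% of the barcodes held at least 1 UMI of these 4 opposing genes.

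The share of Clec3b-led fibroblasts among fibroblast-gated barcodes was lowest in AS. The library labelled Healthy had 48.5% (46.0 to 51.0, exact binomial interval), AS 14.6% (11 to 18.8), MTZ-treated 37.1% (34.6 to 39.6) and MTZ-preventive 44.4% (42.5 to 46.3). The interval of AS overlapped none of the other 3. After every barcode was thinned to 1000 UMIs the shares were 40.6, 11.6, 29.0 and 28.4%, with AS again lowest and the MTZ libraries level with each other. The share in AS was 0.301 times that in the library labelled Healthy (0.232 to 0.391, large-sample log interval), the share in MTZ-treated 2.54 times that in AS (1.95 to 3.31), and the share in MTZ-preventive 3.04 times that in AS (2.34 to 3.94). Both MTZ ratios share the 50 AS barcodes.

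The Fbn1/Sfrp4 set had another order, at 12.9, 40.4, 46.2 and 24.9% of fibroblast-gated barcodes. Of all barcodes within the limits, the Clec3b-led fibroblasts made up 6.21, 2.27, 7.39 and 7.32%. The size of the ratios depended on 1 choice above all. Without barcodes that held at least 2 UMIs in each of 2 markers of another cell class, 37 of 126 fibroblast-gated barcodes were chosen in AS, 29.4%, against 56.0% in the library labelled Healthy, 45.5% in MTZ-treated and 55.5% in MTZ-preventive. The ratios were then 0.524, 1.55 and 1.89. Leaving these barcodes out kept 1003 of 1579, 126 of 342, 982 of 1437 and 1351 of 2687 fibroblast-gated barcodes, the smallest part in AS.

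**Figure D2:**
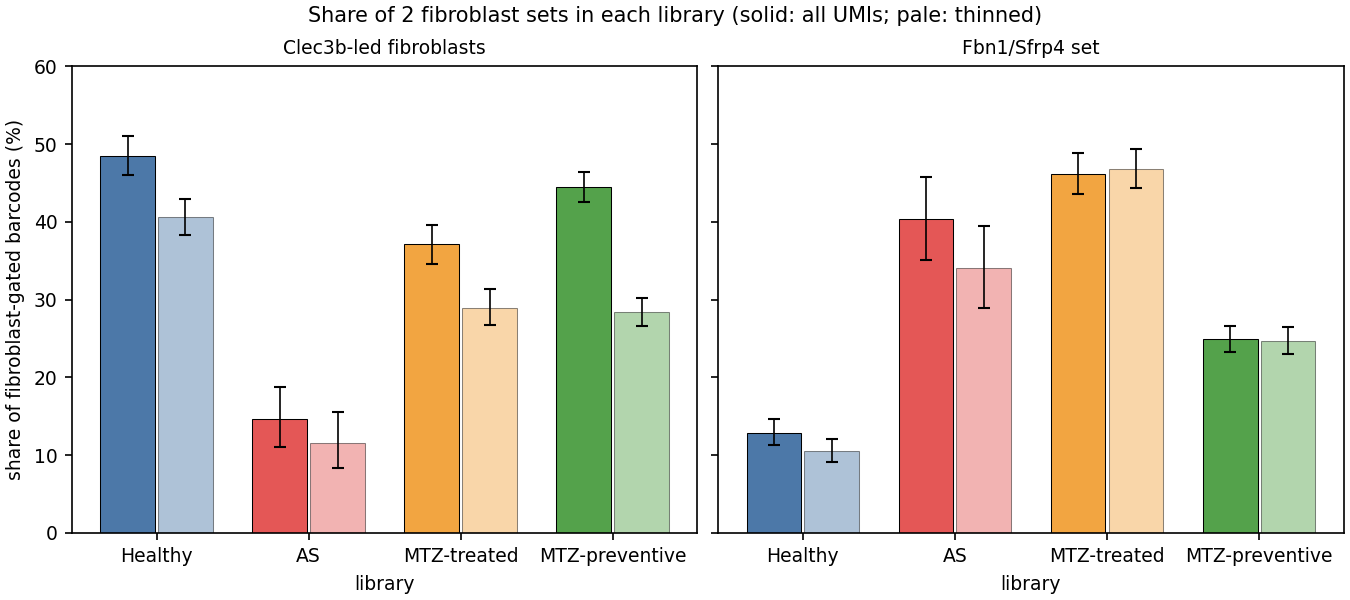
Share of fibroblast-gated barcodes (%) in the Clec3b-led and the Fbn1/Sfrp4 set of each library, from all UMIs (solid bars) and after thinning to 1000 UMIs (pale bars), with exact 95% binomial intervals. The Clec3b-led share of AS, 14.6%, is the lowest of the 4 libraries.

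Levels were compared between libraries as ratios of CPM over the summed UMIs of the Clec3b-led fibroblasts, with an exact conditional binomial interval. A gene counted as measured with at least 200 CPM in either library, and as 2-fold apart where the ratio of (CPM + 10) reached 2. Between AS and the library labelled Healthy 836 genes were measured, of which 63 were at least 2-fold higher in AS (7.54%) and 76 at least 2-fold lower (9.09%). In MTZ-treated against AS, 41 of 827 were higher (4.96%) and 49 lower (5.93%). In MTZ-preventive against AS, 36 of 788 were higher (4.57%) and 33 lower (4.19%). The median log2 ratio over the measured genes was 0.16, 0.09 and -0.04 in the 3 comparisons, and the list medians below are read beside these. The AS library enters all 3, so that a gene that is extreme in AS appears in each of them.

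Genes of the fibrillar collagens and their partners made up the largest block of low genes in AS. Col1a1, a chain of type I collagen, stood at 13568 CPM in the library labelled Healthy, 1066 CPM in AS, 3058 CPM in MTZ-treated and 1183 CPM in MTZ-preventive. Col3a1, of type III collagen, stood at 11763, 1302, 3282 and 1339 CPM. Sparc, a secreted collagen-binding protein that the rule did not use, stood at 17133, 2253, 5605 and 2602 CPM. The library labelled Healthy was far above the other 3 for these genes, with MTZ-treated second, and AS close to MTZ-preventive.

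Col1a1 was 12.7-fold lower in AS than in the library labelled Healthy (10.8 to 15.1), Col1a2 8.83-fold (7.46 to 10.5), Col3a1 9.04-fold (7.81 to 10.5) and Sparc 7.60-fold (6.81 to 8.52). Serpinh1, the collagen chaperone Hsp47, was 3.33-fold lower (2.73 to 4.11), but 1.90-fold with each barcode at equal weight. Of the 15 measured genes of the list 10 were at least 2-fold lower, beside 9.09% of all genes, and none higher, with a median log2 ratio of -1.72. The 3 collagen genes belong to the fibroblast gate, of which any 3 of 6 genes had to be detected.

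MTZ-treated stood above AS in the same genes. Col1a1 was 2.87-fold higher (2.44 to 3.40) and Sparc 2.49-fold higher (2.22 to 2.79), and with Col1a2, Col3a1 and Col6a2 they were the 5 of 14 measured list genes that were at least 2-fold higher, against a background of 4.96%. When each barcode had equal weight in place of its UMIs, the AS level of Col1a1 was 1865 CPM and the ratio 1.31, and Sparc had a ratio of 1.40. Col1a2, Col3a1 and Col6a2 were also under the line, so that none of the 5 genes stayed 2-fold apart. Col3a1 was under it with the looser limits on barcodes too. In MTZ-preventive against AS none of 13 measured list genes was 2-fold apart in either direction, beside 4.57% of all genes higher and 4.19% lower. Col1a1 had a ratio of 1.11 (0.943 to 1.32) there, which turned to 0.595 with each barcode at equal weight.

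The Fbn1/Sfrp4 set differed less from library to library in these genes. Its Col1a1 level was 9704 CPM in the library labelled Healthy, 3610 CPM in AS, 8216 CPM in MTZ-treated and 3738 CPM in MTZ-preventive. In endothelial barcodes it was 539, 264, 396 and 296 CPM.

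Elastic fibre genes did not share 1 order. Eln, which encodes tropoelastin, stood at 1409 CPM in the library labelled Healthy, 308 CPM in AS, 56 CPM in MTZ-treated and 79.7 CPM in MTZ-preventive. Both MTZ libraries were below AS, by 5.50-fold in MTZ-treated (3.71 to 8.04) and 3.86-fold in MTZ-preventive (2.74 to 5.32). Mfap4, a microfibril protein, stood at 903, 35.8, 83.6 and 124 CPM, lowest in AS. With each barcode at equal weight Eln in AS was 1.89-fold below the library labelled Healthy, under the 2-fold line. Of 14 measured small proteoglycan and elastic fibre genes 5 were at least 2-fold lower in AS than in the library labelled Healthy, beside 9.09% of all genes, namely Eln, Mfap4, Bgn, Fbln5 and Mfap2. Dcn, the abundant proteoglycan decorin and a gate gene, stood at 7722, 8634, 7418 and 9621 CPM and was the most even of the large matrix genes named here.

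Metallothioneins, small proteins that bind zinc and copper and are induced by these metals and by glucocorticoids, were the reverse of the collagens. Their promoters carry metal response elements, which the zinc-sensing factor MTF1 binds. The windows of 250 bases before the RefSeq starts of Mt1 and Mt2 (GRCm38.p6, both plus strand, chr8:94178839-94179088 and chr8:94172368-94172617) are shown because both genes had the same order of libraries. Capitals mark the letters TGCGCNC or TGCACNC on either strand.
Mt1: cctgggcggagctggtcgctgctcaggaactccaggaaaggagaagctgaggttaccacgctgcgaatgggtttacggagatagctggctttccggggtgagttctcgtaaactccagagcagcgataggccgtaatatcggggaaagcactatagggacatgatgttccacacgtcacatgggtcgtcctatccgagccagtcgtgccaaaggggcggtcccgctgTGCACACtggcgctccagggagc
Mt2: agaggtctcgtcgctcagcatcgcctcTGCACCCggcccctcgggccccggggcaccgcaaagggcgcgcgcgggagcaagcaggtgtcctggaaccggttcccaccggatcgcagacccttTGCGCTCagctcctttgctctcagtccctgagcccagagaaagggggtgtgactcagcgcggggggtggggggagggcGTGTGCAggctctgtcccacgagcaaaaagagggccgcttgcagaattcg

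The Mt2 window held 3 matches and the Mt1 window 1. Among 32851 RefSeq promoter windows of the same length, 1.26% held at least 3 and 21.4% at least 1. A match is a description of the letters and not a site.

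Mt1 stood at 2009 CPM in the library labelled Healthy, 20608 CPM in AS, 3132 CPM in MTZ-treated and 9839 CPM in MTZ-preventive. Mt2 stood at 402, 3505, 715 and 1866 CPM, in the same order of libraries. AS was the highest for both genes and the library labelled Healthy the lowest. Mt1 was 10.3-fold higher in AS than in the library labelled Healthy (9.78 to 10.7) and Mt2 8.72-fold (7.79 to 9.74). MTZ-treated was below AS by 6.58-fold in Mt1 (6.28 to 6.90) and 4.90-fold in Mt2 (4.39 to 5.46). MTZ-preventive was below AS by 2.09-fold in Mt1 (2.02 to 2.18) and 1.88-fold in Mt2 (1.71 to 2.06).

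A single AS barcode held 24.6% of the Mt1 UMIs of AS. Without the barcode that held the most Mt1 UMIs in each library, the difference between AS and MTZ-preventive was 1.77-fold, on the scale of (CPM + 10), and it was under the 2-fold line also with TMM factors, with the looser limits on barcodes, without barcodes with markers of another class, at 1.67-fold, and with each barcode at equal weight, at 1.48-fold. Other cells had the same order of libraries, as endothelial barcodes stood at 506, 7959, 1132 and 5194 CPM and the Fbn1/Sfrp4 set at 1414, 8865, 1812 and 8476 CPM. No gene for the zinc transporters Slc39a14 and Slc30a1 nor Mt3 reached 200 CPM.

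Acute phase genes formed the largest block of high genes in AS. Hp, the hemoglobin-binding haptoglobin, stood at 58.8 CPM in the library labelled Healthy, 1710 CPM in AS, 204 CPM in MTZ-treated and 1314 CPM in MTZ-preventive. Serpina3n, an inhibitor of granzyme and elastase-like proteases, stood at 70.9, 1903, 257 and 1387 CPM. Lcn2, the iron-siderophore carrier lipocalin-2, stood at 16, 608, 78.2 and 259 CPM. For all 3 genes AS and MTZ-preventive were high and the other libraries low.

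Hp was 29.1-fold higher in AS than in the library labelled Healthy (23.4 to 36.2), Lcn2 37.9-fold (25.4 to 57.6) and Serpina3n 26.8-fold (22.0 to 32.9). Of the 13 measured acute phase and NF-kB target genes 10 were at least 2-fold higher, beside 7.54% of all genes, and none lower, with a median log2 ratio of 1.74. In MTZ-treated against AS 6 of 13 were at least 2-fold lower, beside 5.93% of all genes, and none higher, with Hp 8.39-fold lower (7.05 to 9.98) and Serpina3n 7.41-fold lower (6.31 to 8.68). In MTZ-preventive against AS 3 of 13 were lower, Saa3, Lcn2 and Serpina3m, beside 4.19% of all genes, and 2 higher, Has1 and Socs3, beside 4.57%. With a choosing sum of at least 5 Lcn2 was under the 2-fold line there, at -0.89 on the log2 scale. Hp differed there by 1.30-fold (1.14 to 1.48). Cebpd and Cebpb, which encode C/EBP factors that act on acute phase promoters, stood at 547, 1602, 943 and 1293 CPM and at 455, 937, 564 and 1033 CPM.

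Saa3, the serum amyloid A made outside the liver, was the most extreme gene and rested on 1 barcode. It had no UMI in the library labelled Healthy, and stood at 2182 CPM in AS, 25.6 CPM in MTZ-treated and 118 CPM in MTZ-preventive. AS was at least 1632-fold higher than the library labelled Healthy, counted against 3 UMIs over that library. However, 93.4% of the 305 Saa3 UMIs of AS came from 1 barcode, and without it AS stood at 156 CPM. The difference between AS and MTZ-preventive was 18.5-fold with it (16 to 21.4) and 1.44-fold without the top barcode of each library. The Saa3 window of 250 bases before the RefSeq start (GRCm38.p6, chr7:46715677-46715926, minus strand) is shown beside it, with capitals for the C/EBP letters TTGCNNAA on either strand.
Saa3: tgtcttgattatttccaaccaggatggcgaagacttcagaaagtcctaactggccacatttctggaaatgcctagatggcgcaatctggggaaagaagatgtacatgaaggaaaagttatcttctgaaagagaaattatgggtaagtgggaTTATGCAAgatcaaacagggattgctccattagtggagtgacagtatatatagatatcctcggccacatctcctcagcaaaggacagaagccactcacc

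It held 1 match, as did the windows of Lcn2, C3, Cxcl13 and Mt2, while those of Mt1, Serpina3n and Lrg1 held none. Of all windows 9.56% held at least 1. None of these matches overlapped a marked metal response element.

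Other cell classes carried the acute phase genes too. Hp stood at 2.19, 1192, 24.5 and 2039 CPM in endothelial barcodes, and after thinning it was detected in 5.35, 42, 7.5 and 35.3% of Clec3b-led fibroblasts (6.92, 48, 14.3 and 50.3% before thinning). In endothelial barcodes, with medians of 2645, 1432, 1721 and 2304 UMIs, 0.776, 42.2, 2.86 and 44.6% held an Hp UMI, and the share of Hp in the Clec3b-led fibroblasts of AS and MTZ-preventive was at the level found in another cell class. What part free RNA had in the Hp levels was not tested.

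**Figure D3:**
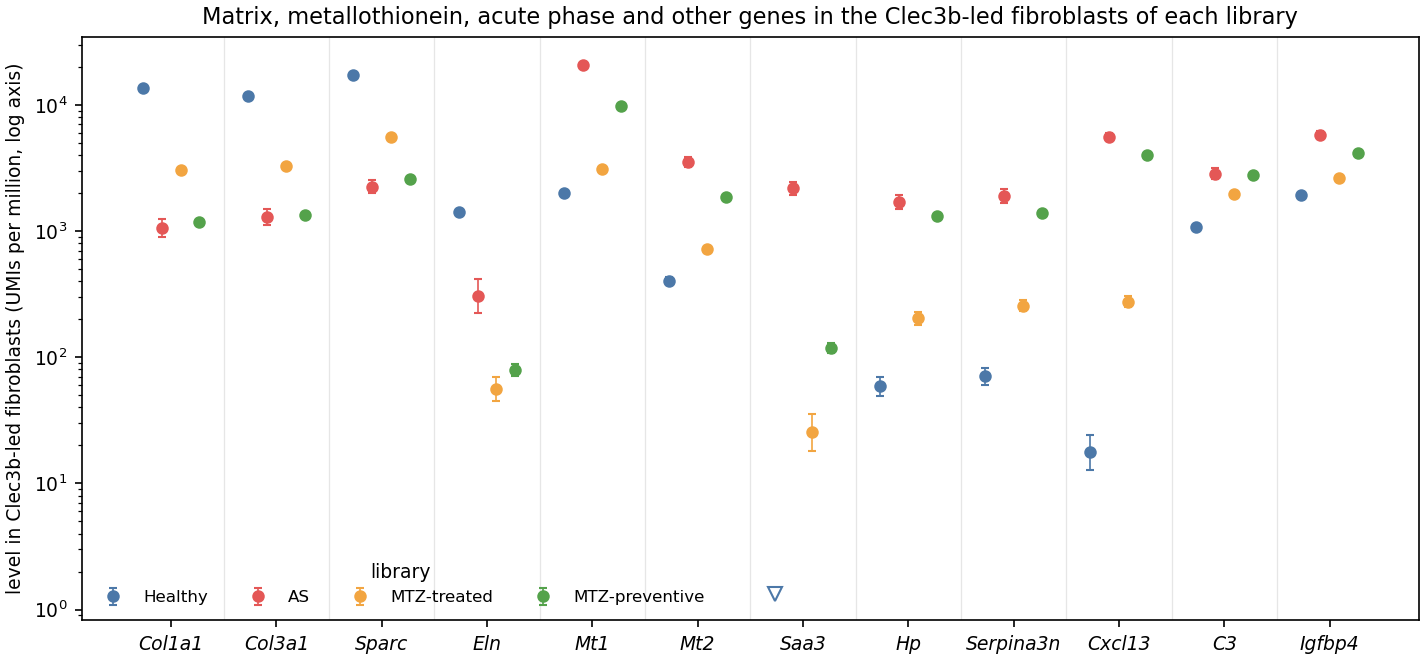
Levels of 12 genes in the Clec3b-led fibroblasts of each library, in CPM on a log axis with 95% counting intervals; the open triangle marks Saa3 in the library labelled Healthy, which had no UMI, at the level of 3 UMIs. Collagens and Sparc are highest in the library labelled Healthy, while Mt1, Mt2, Hp, Serpina3n and Cxcl13 are highest in AS and second in MTZ-preventive. For Cxcl13 the order of AS and MTZ-preventive depends on a single AS barcode.

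Chemokine genes split into 2 patterns. Cxcl13, which attracts B cells to follicles, stood at 17.8 CPM in the library labelled Healthy, 5594 CPM in AS, 276 CPM in MTZ-treated and 3990 CPM in MTZ-preventive. AS was 314-fold above the library labelled Healthy (228 to 443) and 20.2-fold above MTZ-treated (17.9 to 22.9). In AS 41.4% of its UMIs lay in 1 barcode, whereas in MTZ-preventive the top barcode held 3.51%. AS was above MTZ-preventive only with that AS barcode counted. A Cxcl13 UMI was held by 43% of the MTZ-preventive barcodes (36.3% after thinning) against 24% in AS (22%). Endothelial barcodes held one in 9.98% in AS and 20.6% in MTZ-preventive.

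Ccl2 and Ccl7, monocyte chemokines, were highest in MTZ-preventive. Ccl2 stood at 189, 222, 433 and 891 CPM and was 4.02-fold higher in MTZ-preventive than in AS (2.82 to 5.92). Cxcl14 stood at 16.5, 21.5, 157 and 352 CPM, where AS rested on 3 UMIs, and the ratio was 16.4 (5.60 to 79.7). With Ccl7, Cxcl1 and Ccl11 these were the 5 of 10 measured chemokine and cytokine genes that were at least 2-fold higher in MTZ-preventive than in AS, against a background of 4.57%, and Ccl19 was 3.12-fold lower (2.45 to 3.92). Without the deepest barcode of each library Ccl11 was under the 2-fold line, at 0.97 on the log2 scale. In MTZ-treated against AS 4 of 8 were lower, Cxcl13, Ccl19, Cxcl12 and Il33, beside 5.93% of all genes, and none higher. In AS against the library labelled Healthy the same 4 genes were the ones at least 2-fold higher of 9 measured, beside 7.54% of all genes. Cxcl10 was the 1 lower gene, near the 9.09% of all genes. Cxcl12 was near the line, and with each barcode at equal weight it was under 2-fold in both comparisons, at 1.83-fold and 1.42-fold, and Ccl19 in MTZ-treated against AS at 1.49-fold. Cxcl12 was also under the line in both without each gene's top barcode and without barcodes with a receptor contig.

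Complement genes were abundant in every library. Serping1, the C1 inhibitor, was the highest of those named here at 2192, 3598, 2519 and 3115 CPM. C3, the central component, stood at 1078 CPM in the library labelled Healthy, 2854 CPM in AS, 1983 CPM in MTZ-treated and 2760 CPM in MTZ-preventive. C4b, of the classical pathway, stood at 99.8, 844, 504 and 580 CPM. C3 was 2.65-fold higher in AS than in the library labelled Healthy (2.38 to 2.95) and C4b 8.45-fold (6.71 to 10.6), and 4 of 9 measured complement genes were at least 2-fold higher, beside 7.54% of all genes, and none lower. In MTZ-treated against AS 4 of 9 were lower, beside 5.93% of all genes, with C7, a terminal component, 2.54-fold lower (2.05 to 3.13; 1.69-fold with each barcode at equal weight), while C3 had a ratio of 0.695 (0.625 to 0.773). In MTZ-preventive against AS C3 had a ratio of 0.967 (0.875 to 1.07). Only Cfd was 2-fold apart among 9 measured complement genes, and it was higher, beside 4.57% of all genes.

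Cfd, which encodes the adipsin protease of the alternative pathway and is made above all by adipocytes, stood at 465, 393, 109 and 1498 CPM. Cfd is itself 1 of the 10 adipocyte markers, which summed to 1212 CPM in the library labelled Healthy, 1237 CPM in AS, 582 CPM in MTZ-treated and 3006 CPM in MTZ-preventive, led by Fabp4 in the first 3 libraries and by Cfd in MTZ-preventive, and Lep was at 0 in the first 3. Fabp4, which endothelial cells also express, stood at 546, 758, 409 and 1253 CPM, and Adipoq, the adipocyte hormone adiponectin, at 26.3, 7.15, 4.72 and 36.1 CPM. Endothelial barcodes of AS and MTZ-preventive held Cfd at 5456 and 4575 CPM, above the Clec3b-led fibroblasts. With the looser limits of more than 500 UMIs and under 20% mitochondrial UMIs the Cfd difference between MTZ-preventive and AS turned to -0.057 on the log2 scale, and without barcodes with markers of another class it was 1.57-fold. The part of adipocyte RNA in these values was not tested.

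The insulin-like growth factor axis was dominated by binding proteins. Igfbp4 stood at 1940 CPM in the library labelled Healthy, 5772 CPM in AS, 2640 CPM in MTZ-treated and 4151 CPM in MTZ-preventive. It was 2.98-fold higher in AS than in the library labelled Healthy (2.76 to 3.21), the only 2-fold gene of 8 measured where 7.54% of all genes were higher, and 2.19-fold lower in MTZ-treated than in AS (2.02 to 2.36), a difference that was under 2-fold with TMM factors, with each barcode at equal weight and without barcodes with markers of another class. Igfbp6 stood at 2089, 1316, 3286 and 1430 CPM and was 2.50-fold higher in MTZ-treated than in AS (2.15 to 2.91), but 1.42-fold with each barcode at equal weight and 1.75-fold without barcodes with markers of another class. Igfbp3 was 5.30-fold lower in MTZ-treated than in AS (3.49 to 7.93), so that 1 of 8 was higher and 2 lower there, beside 4.96 and 5.93% of all genes. None of 8 was 2-fold apart between MTZ-preventive and AS, beside 4.57% of all genes higher and 4.19% lower. Igfbp4 had a ratio of 0.719 there (0.670 to 0.773).

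Immediate early genes, which dissociation of tissue also induces, were abundant throughout. Fos stood at 4135, 2532, 3343 and 5030 CPM. None of 17 measured genes was 2-fold higher in AS than in the library labelled Healthy and Nr4a1 was the 1 lower gene, beside 7.54 and 9.09% of all genes. In MTZ-preventive against AS Nr4a1, an orphan nuclear receptor, and Zfp36, which speeds decay of cytokine mRNA, were the 2 of 18 at least 2-fold higher, at 3.98-fold (2.78 to 5.91) and 2.43-fold (1.95 to 3.07). In MTZ-treated against AS Klf9 was the 1 lower gene of 17, near the 5.93% of all genes. The other counts of 1 or 2 genes in the immediate early and heat shock lists stand beside 4.19 to 9.09% of all genes and are given as counts only. Of the heat shock genes, Hspb1 stood at 458, 1302, 954 and 1508 CPM and was 2.84-fold higher in AS than in the library labelled Healthy (2.41 to 3.33), while Dnajb1 was the 1 lower gene of 9. Hspa1a was the 1 of 8 lower in MTZ-treated than in AS, and Hspa8 and Dnajb1 were the 2 of 9 higher in MTZ-preventive than in AS. Hspa8 was at the line, and it was under it with the looser limits on barcodes and without other-class, deepest or receptor contig barcodes. Hspb1 was under it, at 1.93-fold, without its top barcode in each library.

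Of 10 measured genes of the Pi16-type adventitial list, Igfbp6 and Mfap5 were at least 2-fold higher in MTZ-treated than in AS, beside 4.96% of all genes. Ly6c1 was the 1 of 9, near the 7.54% of all genes, that was higher in AS than in the library labelled Healthy, at 2.81-fold (2.53 to 3.11). Pi16 itself, a peptidase inhibitor that marks a widely shared fibroblast state, stood at 2256, 1388, 2317 and 2270 CPM, lowest in AS, at a ratio of 0.615 to the library labelled Healthy (0.530 to 0.710). Of 6 measured basement membrane genes 3 were lower in AS than in the library labelled Healthy, beside 9.09% of all genes, led by Col15a1 at 230 CPM against 7.15 CPM, the latter from 1 UMI, a ratio of 0.0312 (0.000787 to 0.174).

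Among morphogen and Wnt modulators 3 of 7 were lower in AS than in the library labelled Healthy, beside the same background. Ccn5, a matricellular protein, was 11.6-fold lower in AS (4.94 to 35.7), Tgfbi 4.98-fold (3.05 to 8.73) and Ccn2 4.29-fold (2.74 to 7.15). Of 9 retinoid, steroid and detoxification genes Rbp4, the retinol carrier, was 5.80-fold lower in AS than in the library labelled Healthy (3.66 to 9.80), Gstm1 was also lower and Cyp1b1 higher, beside 9.09 and 7.54% of all genes. Of 12 proteases and inhibitors Mmp3 was higher in AS in the same comparison, and Adamts2, Mmp23 and Serpinf1 were lower, beside 7.54 and 9.09% of all genes, so that the 1 higher gene was near the background. Among 3 contractile and myofibroblast genes Comp was higher in AS than in the library labelled Healthy, at 8.93-fold (6.28 to 12.6), and it was 2.99-fold lower in MTZ-preventive than in AS (2.21 to 3.96). Acta2 and Tagln, the other 2 measured genes of that list and both abundant in smooth muscle, were at least 2-fold higher in MTZ-preventive than in AS, where 4.57% of all genes were. Of 14 respiratory complex genes none was 2-fold apart in AS against the library labelled Healthy or in MTZ-treated against AS, beside 4.96 to 9.09% of all genes on each side. Ndufa1 was the 1 of 14 lower in MTZ-preventive than in AS, near the 4.19% of all genes. Of 5 morphogen and Wnt modulators Ccn1 and Ccn2 were higher and Sfrp2 lower in MTZ-preventive than in AS, beside 4.57 and 4.19% of all genes. Gstm1 was the 1 higher of 9 retinoid, steroid and detoxification genes there. In MTZ-treated against AS Serpinf1 was higher of 10 proteases and inhibitors and Tagln of 3 contractile genes, beside 4.96%. Col4a1 was lower of 2 basement membrane genes and Cyp1b1 of 8 retinoid, steroid and detoxification genes, beside 5.93%. Counts of 1 gene are given as counts only.

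**Figure D4:**
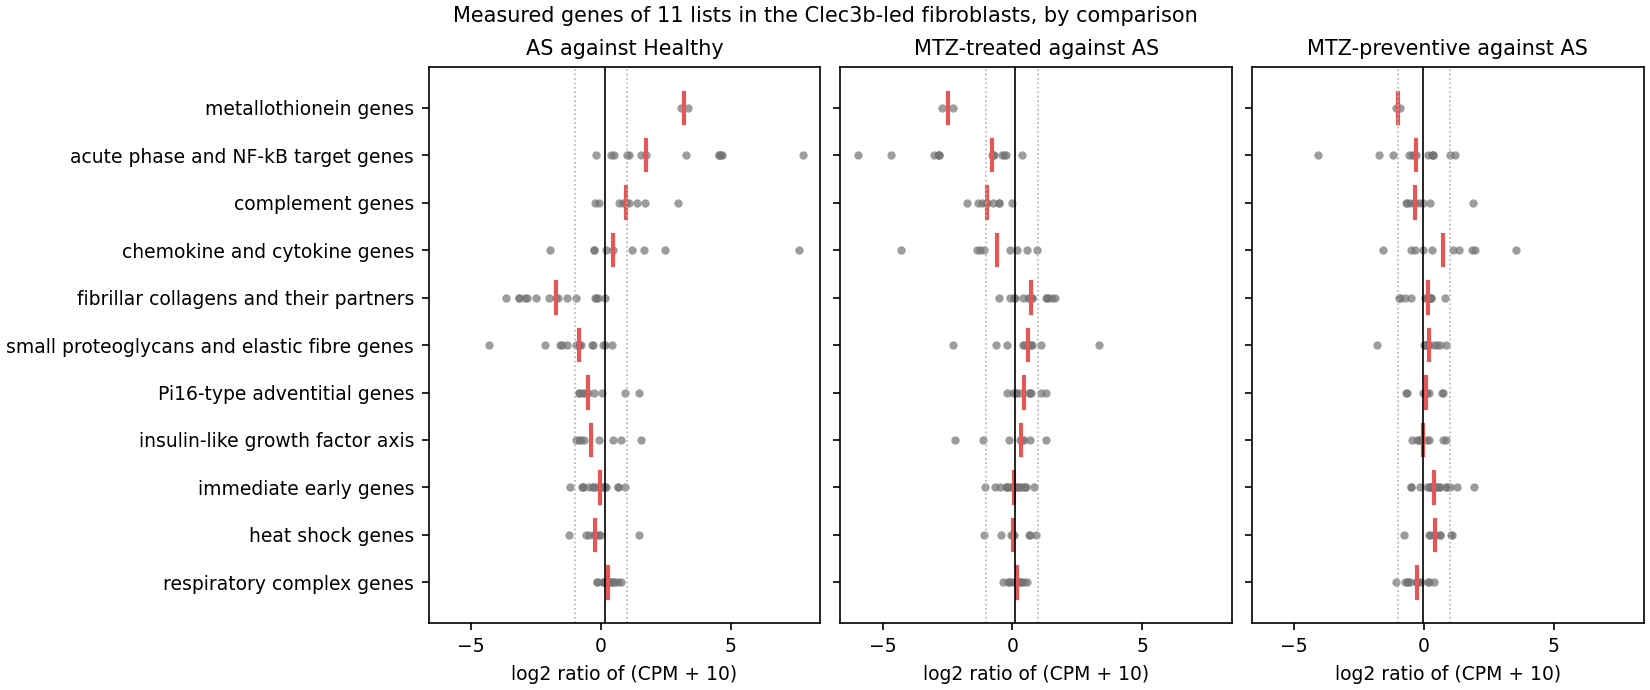
Log2 ratio of (CPM + 10) of each measured gene of 11 lists in the Clec3b-led fibroblasts, for the 3 comparisons (grey points), with the list median (red bar), the median of all measured genes (black line) and the 2-fold lines (dotted). The medians of metallothioneins and acute phase genes lie right and that of the collagens left of the black line in AS against the library labelled Healthy, and the reverse in MTZ-treated against AS.

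Carbonic anhydrases, the targets of MTZ, were scarce in the Clec3b-led fibroblasts. No gene of the 14 reached 200 CPM in any library. Car3, an abundant enzyme of adipocytes and muscle, stood at 126 CPM in the library labelled Healthy, 7.15 CPM in AS, 56 CPM in MTZ-treated and 76.1 CPM in MTZ-preventive. The 14 genes together gave 182 CPM (165 to 201), 28.6 CPM (7.80 to 73.3), 125 CPM (107 to 144) and 159 CPM (146 to 172). Car3 was the highest of them in all libraries but AS, where the sum rested on 4 UMIs, 2 of them of Car13. Of the calcification and chondro-osteogenic genes Mgp, an inhibitor of calcification, was the only 1 measured, at 2620, 1574, 2583 and 2278 CPM, and Spp1, which encodes osteopontin, stood at 0.891, 78.7, 35.7 and 34.9 CPM.

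In the lipid and prostaglandin list 1 gene stood apart in MTZ-preventive. Apod, a lipocalin that carries arachidonic acid and other lipids, stood at 257 CPM in the library labelled Healthy, 358 CPM in AS, 375 CPM in MTZ-treated and 1419 CPM in MTZ-preventive. It was 3.97-fold higher in MTZ-preventive than in AS (3 to 5.35), the 1 of 4 measured genes that was 2-fold apart, where 4.57% of all genes were higher. In AS against the library labelled Healthy 3 of 7 were lower, Apoe, Lpl and Scd1, beside 9.09% of all genes. In MTZ-treated against AS none of 4 was 2-fold apart, beside 4.96% of all genes higher and 5.93% lower. The Fbn1/Sfrp4 set held Apod at 215, 209, 113 and 325 CPM, with the highest level in the same library.

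Class II antigen presentation genes were lower in AS, the library with the fewest lymphocyte barcodes, than in the library labelled Healthy. Cd74, the invariant chain, stood at 1129 CPM in the library labelled Healthy, 28.6 CPM in AS, 124 CPM in MTZ-treated and 461 CPM in MTZ-preventive. It was 39.4-fold lower in AS than in the library labelled Healthy (15.4 to 145) and had a ratio of 16.1 in MTZ-preventive against AS (6.28 to 59.2). Endothelial barcodes had the same order at 1256, 141, 424 and 840 CPM, and barcodes with B or T cell genes and Ptprc numbered 2602, 4, 77 and 708. Of 13 interferon and antigen presentation genes 5 were lower in AS than in the library labelled Healthy, 4 of them class II genes or Cd74, beside 9.09% of all genes. Ifitm1, an interferon-induced membrane protein, was the 1 higher gene, near the 7.54% of all genes, at 11.3-fold above the library labelled Healthy (8.03 to 15.8). It was 10.1-fold lower in MTZ-treated than in AS (7.03 to 14.6) and 2.27-fold lower in MTZ-preventive than in AS (1.72 to 2.94). Of 9 measured list genes in MTZ-treated against AS 1 was higher and 1 lower, beside 4.96 and 5.93% of all genes. In MTZ-preventive against AS 1 of 10 was higher and 1 lower, beside 4.57 and 4.19%. The part of free lymphocyte RNA in these values was not tested.

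Some of the highest and lowest genes have not been described above, and the first of them rested on a single barcode. Slpi, a protease inhibitor, was the highest gene of MTZ-treated against AS at 1132 CPM against 50.1 CPM, but 99.1% of its UMIs in MTZ-treated lay in 1 barcode. Without the top barcode of each library the levels were 10.2 CPM against 29.4 CPM, with MTZ-treated the lower. Aspn, a small proteoglycan, stood at 151, 14.3, 234 and 59.5 CPM and had a ratio of 16.4 (4.49 to 136) in MTZ-treated against AS, where AS rested on 2 UMIs. Ccdc80 was 3.60-fold higher (2.29 to 6.01) and Tmsb10, which encodes an actin-binding thymosin, 3.17-fold (2.82 to 3.58). The lowest genes of MTZ-treated against AS also held S100a9 and S100a8, the neutrophil calprotectin chains, at 7.42 against 322 CPM and 3.37 against 200 CPM. In MTZ-preventive against AS the lowest genes also held Cryab, a small heat shock protein, 6.62-fold lower (5.62 to 7.78), and Sfrp2, a Wnt inhibitor, 3.67-fold lower (3.14 to 4.27).

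Between the 2 fibroblast sets, genes that the rule did not use were compared within each library, as a description of sets selected on their own counts. Of 588 genes with at least 200 CPM in 1 of the sets in every library, 2 were at least 2-fold higher in the Clec3b-led fibroblasts in all 4 libraries (0.34%) and none at least 2-fold lower (0%). A further view without the 2-fold line gave 176 genes higher in all 4 libraries (29.9%) and 106 lower in all 4 (18%). The 2 genes were C7 and C3, both complement components. C7 stood at 440, 801, 315 and 508 CPM in the Clec3b-led fibroblasts against 110, 143, 69.0 and 188 CPM in the Fbn1/Sfrp4 set. C3 stood at 297, 1296, 845 and 1015 CPM in the Fbn1/Sfrp4 set, so that its order of libraries was the same in both sets.

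Next after C7 and C3 by the smallest log2 ratio over the 4 libraries came Gsn, the actin-severing gelsolin, from 0.93 to 1.76, Fbln1, a matrix fibulin, from 0.78 to 1.46, and Ogn, the small proteoglycan osteoglycin, from 0.76 to 1.20. Entpd2, Gpx3, Cxcl12, Plpp3, Pnp, Cebpb, Scara5, Cd302, C1ra and Mgst1 completed the 15 highest. At the other end stood S100a4, an intracellular calcium-binding protein, from -1.78 to -0.92, Fn1, fibronectin, from -1.64 to -0.84, and Bgn, biglycan, from -0.93 to -0.61. Tppp3, Tpm1, Anxa5, Tm4sf1, Prelp, Itgb1 and Cyb5r3 completed the 10 lowest. By list, 4 of 7 measured complement genes, 10 of 17 immediate early genes and 5 of 7 retinoid, steroid and detoxification genes were higher in all 4 libraries and none lower, beside 29.9% of all genes. The same held for 4 of 7 interferon and antigen presentation genes, 3 of 5 acute phase genes and both metallothioneins. Lower in all 4 libraries, beside 18% of all genes, were 3 of 3 contractile and 4 of 9 small proteoglycan and elastic fibre genes. Of the collagen list 3 of 15 genes were lower in all 4, a count near the background. The median log2 ratio of the collagen list was 0.12, -1.23, -1.02 and -1.12, beside 0.0029, 0.11, 0.092 and -0.010 for all measured genes. By its median the collagen list was therefore lower in the Clec3b-led fibroblasts in every library but the one labelled Healthy. The small proteoglycan and elastic fibre list also had 3 of 9 genes higher in all 4. This list and the collagen list hold gate genes, such as Dcn and Col1a1, and both sets had met the same gate.

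**Figure D5:**
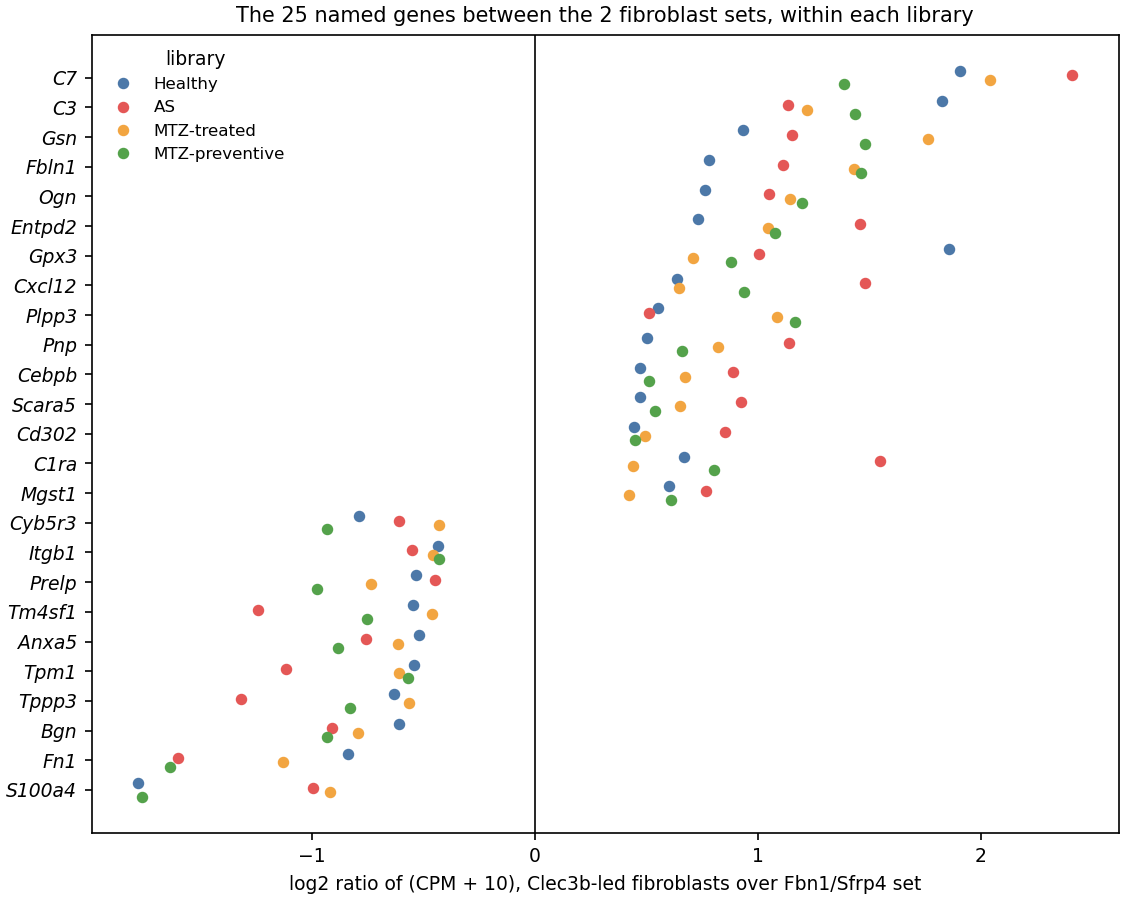
Log2 ratio of (CPM + 10) between the Clec3b-led fibroblasts and the Fbn1/Sfrp4 set within each library, for the 15 highest and 10 lowest genes that the rule did not use. All 4 libraries lie on 1 side of 0 for each of these genes, since this was how they were picked, and C7 lies between 1.39 and 2.41.

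Markers of other cell classes were present in the Clec3b-led fibroblasts at levels that differed between libraries. The 9 markers of mesothelial and Prg4 cells summed to 65.5 CPM in the library labelled Healthy, 6502 CPM in AS, 494 CPM in MTZ-treated and 4441 CPM in MTZ-preventive, led by Cxcl13 in each. Prg4, lubricin, stood at 7.58, 901, 139 and 398 CPM, whereas Msln, Upk3b, Upk1b, Lrrn4, Krt8 and Wt1, which define mesothelium, were at 0 in AS. The 9 neutrophil markers summed to 141, 680, 14.2 and 60 CPM, led by S100a9, with Csf3r, Cxcr2, Camp and Ly6g at 0 in AS. The part of these classes in the acute phase and chemokine values was not tested.

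The 9 B cell markers summed to 674, 215, 404 and 338 CPM and were led by Ebf1, which fibroblasts also express, with Cd79a, Cd79b and Ms4a1 at 0 in AS. All 9 T cell markers were at 0 in AS and summed to 120, 10.1 and 42.3 CPM in the library labelled Healthy, MTZ-treated and MTZ-preventive. The 10 endothelial markers summed to 651, 858, 562 and 1396 CPM, led by Fabp4, and Pecam1 was at 0 by the rule. The 10 smooth muscle markers summed to 768, 379, 820 and 888 CPM, led by Tagln, the 10 macrophage markers to 103, 136, 132 and 53.6 CPM, led by Lyz2, and the 8 Schwann markers to 801, 286, 347 and 348 CPM, led by Pmp22. The 6 lymphatic endothelial markers summed to 41.5, 0, 60 and 37.4 CPM, the 5 red blood cell markers to 30.3, 279, 67.4 and 10.3 CPM, led by Hbb-bs, and the 7 plaque fibroblast-like markers to 65.1, 644, 318 and 203 CPM, led by Comp with Tnfrsf11b at 0 by the rule.

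Receptor libraries gave a separate reading of lymphocyte barcodes in the set. A B cell receptor contig was assigned to the barcode of 49 of 766 Clec3b-led fibroblasts in the library labelled Healthy, 6.40% (4.77 to 8.37). There was 1 such barcode of 50 in AS, 2% (0.0506 to 10.6), and 35 of 1194 in MTZ-preventive, 2.93% (2.05 to 4.05). In MTZ-treated it was 0 of 533, which allows a share of up to 0.563% by the limit of 3 counts and 0.690% by the exact interval. T cell receptor contigs were found on 3, 0, 1 and 11 barcodes, or 0.392, 0, 0.188 and 0.921%. Of all barcodes within the limits, 30.0, 1.54, 1.61 and 10.7% had a B cell receptor contig. A T cell receptor contig was on 10.1, 0.0454, 0.527 and 3.50% of them. In the Fbn1/Sfrp4 set 5.42, 0, 1.20 and 2.54% of the barcodes had a B cell receptor contig.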

How the data were processed

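Per the submitters' processing notes, the authors counted the libraries with Cell Ranger (STAR) on mm10. Version 5.0.0 of Cell Ranger is named in the headers of the deposited count matrices. The deposited gene tables hold raw UMI counts per gene and barcode, without normalization, and the receptor tables hold UMI counts per contig and served only to mark barcodes with a contig.

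Counts of the 38 symbols listed on several lines were summed per symbol. UMIs of the chosen barcodes were summed per library and scaled to CPM. With 1 library per group no test, p-value or SE was computed. Levels have exact Poisson intervals, shares exact Clopper-Pearson intervals and ratios exact conditional binomial intervals, checked on simulated data, and a count of 0 was set to 3 UMIs per library for bounds. Named genes were those of the gene lists, the 8 highest and 8 lowest ratios of (CPM + 10) per comparison, and the 15 highest and 10 lowest genes between the fibroblast sets, leaving out genes of the rule, immunoglobulin and T cell receptor genes, mitochondrial genes and gene models without a name. The chosen cells, the lists and the comparisons were picked with earlier results of these data known. No doublet caller was run. Endothelial barcodes held Pecam1 and at least 2 other endothelial genes. Alternatives covered thinning, limits on barcodes, the choosing sum, the denominator, scaling, the pseudocount, low genes, shared barcodes and barcodes with markers of another class. Leaving out receptor contigs, the deepest barcode or the top barcode of each gene was added after seeing the data. Promoter windows came from RefSeq (GRCm38.p6) for 10 of 17 genes looked up. Python 3.11.15, numpy 2.4.6, scipy 1.17.1, pandas 2.3.3, matplotlib 3.10.9, R 4.3.3 and edgeR 4.0.16 (TMM factors only) were used.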

Additional observations from a re-analysis of the deposited data

How the results depend on the processing

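The lower share of Clec3b-led fibroblasts in AS kept its direction under every alternative run. Without barcodes with markers of another class its log2 ratios were -0.93 for AS against the library labelled Healthy, 0.63 for MTZ-treated against AS and 0.92 for MTZ-preventive against AS, beside -1.73, 1.34 and 1.60 as reported. With more than 500 UMIs and under 20% mitochondrial UMIs the last was 2.04.

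Counts of 2-fold genes depended on the filter by construction. With at least 100 CPM the higher and lower counts were 113 and 147 for AS against the library labelled Healthy, 74 and 99 for MTZ-treated against AS, and 61 and 58 for MTZ-preventive against AS. With at least 500 CPM they were 30 and 32, 16 and 21, and 17 and 14, and with no filter 437 and 1358, 833 and 536, and 945 and 346. Without each gene's top barcode, an alternative chosen after seeing the data, 41 genes were higher in AS than in the library labelled Healthy, 63 were higher and 31 lower in MTZ-treated than in AS, and 16 were lower in MTZ-preventive than in AS. With each barcode at equal weight 101 genes were higher in AS than in the library labelled Healthy and 66 lower in MTZ-preventive than in AS. With TMM factors 72 were higher in MTZ-treated than in AS and 19 lower in MTZ-preventive than in AS, and the median log2 ratios of the 2 MTZ comparisons moved from 0.09 to 0.31 and from -0.04 to 0.16. The cause was not tested.

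The 99 named values at least 2-fold apart, each under 11 settings, reversed in 4 instances. Slpi in MTZ-treated against AS turned to -1.71 without barcodes with markers of another class, -0.96 without its top barcodes and -1.69 without the deepest barcodes, and Cfd in MTZ-preventive against AS to -0.057 with the looser limits. In MTZ-treated against AS 10 of 34 named genes, Col1a1, Col1a2, Col3a1, Col6a2 and Sparc among them, were under 2-fold with each barcode at equal weight. The 50 AS barcodes limit every comparison. No paired analysis was possible because each group had 1 library.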
